A study of Bos taurus with 18 samples.

Results

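The proteasome is the barrel-shaped protease that degrades ubiquitin-tagged proteins in every cell. Its genes were followed here in bovine blastocysts collected 7 days after insemination. Members were the probe sets whose single platform gene symbol starts with PSMA, PSMB, PSMC, PSMD, PSME, PSMF or PSMG, with the brightest probe set kept for each gene. This gave 40 of 9155 genes measured, held by 46 of 24016 probe sets. They comprise 13 genes of the core particle, 13 of the regulatory cap, 5 of the immunoproteasome with its activator PA28, and 8 assembly chaperones, other activators and inhibitors. PSME3IP1, the last of the 40, carries the prefix but encodes a protein that binds the activator PA28 gamma and is no subunit. PSMA2, PSMA8, PSMB11, PSMD3, PSMD7, PSMD8, PSMD12, PSME3 and PSMG4 were matched to no probe set by this rule and were not analysed here.

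In the core particle, rings of alpha subunits form the gate and rings of beta subunits hold the protease sites. The cap binds ubiquitin chains, and its ring of ATPases unfolds the substrate and feeds it into the core. Cells exposed to interferon can replace the 3 catalytic beta subunits by immunoproteasome subunits, whose products suit presentation by class I molecules, and PA28 then often takes the place of the cap. Early embryos clear maternal proteins through this pathway.

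Affymetrix bovine arrays measured 18 RNA pools, each from 60 mixed breed blastocysts of 1 sex, produced in vitro with sorted semen of 1 bull. The groups were female embryos of bull 3, bull 2 and bull 1, and male embryos of bull 3, bull 2 and bull 1, with 3 arrays each, so that 9 female arrays stood against 9 male arrays. All pools were frozen on day 7 and their RNA was amplified before hybridisation. Whether the 3 pools of a sex and bull are separate rounds of embryo production is not in the labels. The p-values therefore reflect the spread among pools, which may be technical.

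Expression is given as log2 values of probe sets, whose medians lay between 5.33 and 5.49 on the 18 arrays. Arrays give no read depth, and their number limits the precision. Before the results, 4 arrays stand apart by a wide spread of their probe sets around the other arrays (an interquartile range over 0.25 log2). These were male bull 1 replicate 2, female bull 1 replicate 3, male bull 2 replicate 1 and male bull 3 replicate 3. The signal of 3 control transcripts at their 5′ end minus that at their 3′ end, a measure of RNA integrity and amplification, ran from -1.27 on male bull 3 replicate 3 to 0.45 on male bull 1 replicate 2. Of the blastocyst markers, KRT18 of the trophectoderm stood at 14.04, POU5F1 of the inner cell mass at 11.93 and GATA6 of the primitive endoderm at 12.39 (means of 18 arrays). Each was the brightest of its list, and the others ran down to 3.64, 5.36 and 4.07 in that order. The leukocyte marker PTPRC stood at 2.84, the dimmest of a list that ran up to 6.35 for AIF1. Cumulus markers ran from 2.42 to 9.90, so these levels do not show which cells a pool held.

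Most proteasome transcripts were among the bright ones of these embryos. The mean of 31 of the 40 members lay above the 90th percentile of all probe sets. Means of core genes ran from 10.39 for PSMA1 to 12.90 for PSMA7, both alpha subunits, and those of cap genes from 8.55 for PSMD13 to 11.01 for PSMD11, both subunits of the cap's lid. Immunoproteasome and PA28 genes ran from 4.60 for PSMB8 to 9.77 for PSME1. PSMB8 and PSMB10 stood at the 40.3rd and 41.8th percentile, below the median of the arrays, and the part of background hybridisation in their signal was not tested. Probe sets differ in affinity, and these percentiles describe probe set signals and do not order the transcripts by abundance.

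The first question was whether female and male blastocysts differ in these transcripts. Of 40 members 4 passed the test for sex, PSMD10 higher in females and PSMB5, PSMB8 and PSME2 lower in females (limma, Benjamini-Hochberg adjusted p under 0.05 over 24016 probe sets). Among all probe sets, 15.6% passed in either direction, 8.12% higher and 7.47% lower in females, and among the brightest probe sets of each gene 20.8% passed. At an unadjusted p under 0.05 the count was 10 of 40, against 26.5% of all probe sets. The median difference of the members, female minus male, was -0.00067 log2, with 20 positive and 20 negative, against -0.03 over all probe sets. The median size of the difference was 0.076 log2 among members and 0.089 over all probe sets. For the 36 members that did not pass, the 95% confidence intervals of the difference lay between -0.31 and 0.30 log2.

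**Figure D1:**
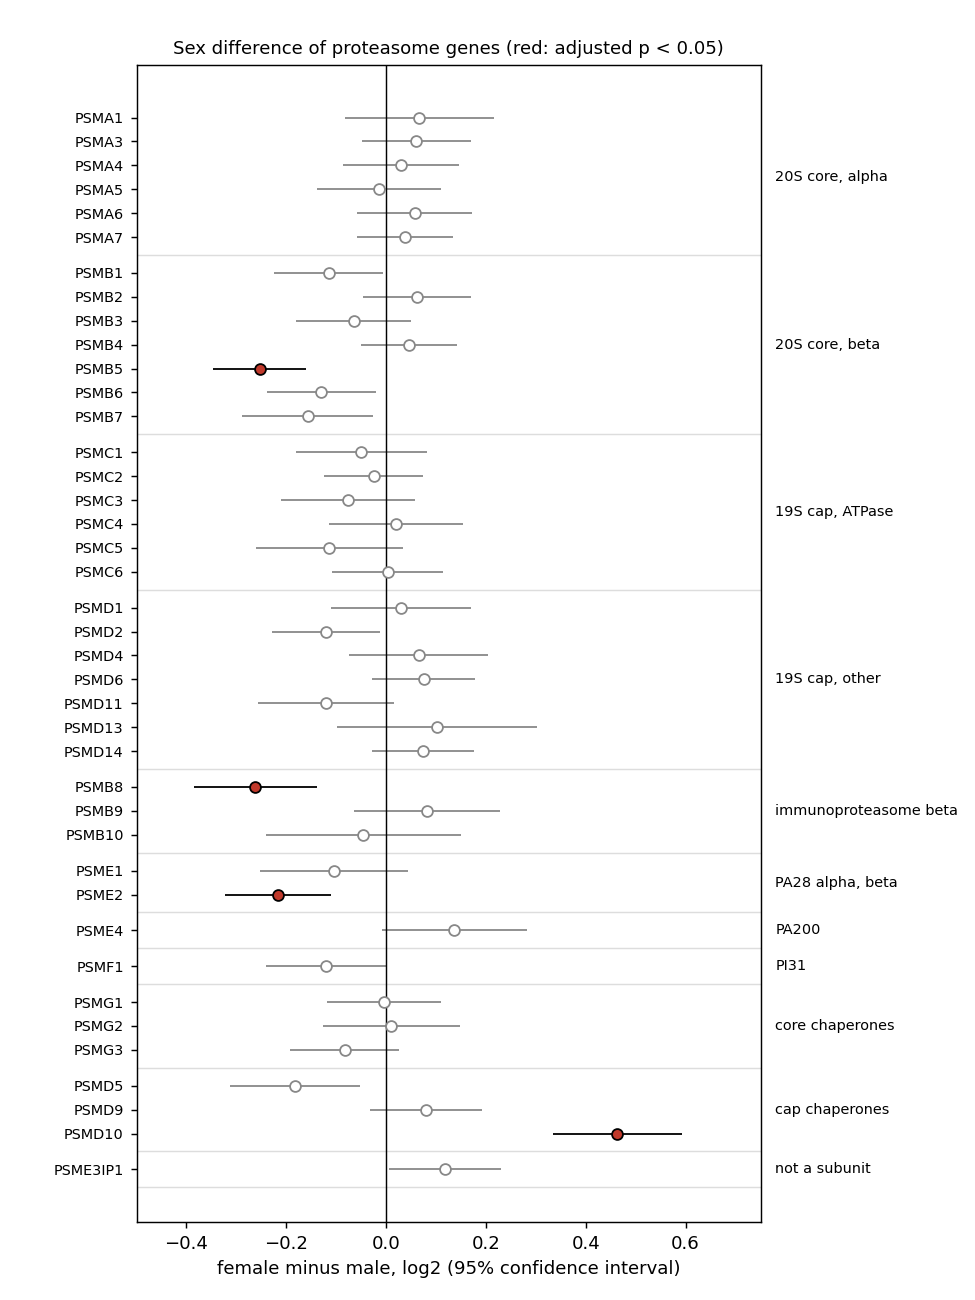
Female minus male log2 difference (horizontal axis) of each of 40 proteasome genes, averaged over 3 bulls, with its 95% confidence interval, grouped by role. PSMD10 at 0.46 stands to the right of all others, and PSMB5, PSMB8 and PSME2 (filled points) lie between -0.26 and -0.22.

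PSMD10 encodes gankyrin, a chaperone that holds an ATPase of the cap during assembly, and it is the member that lies on the X chromosome. Its lowest, median and highest log2 values were 10.45, 10.54 and 10.82 on the 9 female arrays, against 9.74, 10.09 and 10.38 on the 9 male arrays. Every female array was above every male array. Among all probe sets, 1.99% had all females above all males. The means were 10.57 ± 0.13 in females and 10.11 ± 0.19 in males (SD, n = 9 each), a difference of 0.46 log2 (SE 0.061, 95% interval 0.34 to 0.59), or 1.38-fold, with a limma adjusted p of 2.91e-05. A higher level in females was common on this chromosome, where 63.6% of 396 X-linked probe sets passed in that direction.

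PSMB5 encodes the beta subunit that carries the chymotrypsin-like site of the core. Its lowest, median and highest values were 11.37, 11.51 and 11.58 on female arrays, against 11.72, 11.74 and 11.83 on male arrays. All 9 female arrays were below all 9 male arrays, as was so for 0.937% of all probe sets. The mean was 11.50 ± 0.06 in females against 11.75 ± 0.03 in males (SD, n = 9 each). They differed by -0.25 log2 (SE 0.045), 1.19-fold lower in females, with a limma adjusted p of 0.000545. In bulk RNA of whole pools, fewer cells of a type and less RNA per cell cannot be told apart, here and for every member below.

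PSMB8 encodes the immunoproteasome subunit that replaces PSMB5. It had 4.22, 4.44 and 4.68 (lowest, median, highest) on female arrays, against 4.62, 4.69 and 4.89 on male arrays. The sexes overlapped between 4.62 and 4.68. Its means were 4.47 ± 0.15 in females and 4.73 ± 0.10 in males (SD, n = 9 each), a difference of -0.26 log2 (SE 0.058), 1.20-fold lower in females, with a limma adjusted p of 0.00389. At so dim a probe set the fold change may be understated.

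PSME2 encodes the beta subunit of PA28, the activator that opens the gate of the core. It had 7.86, 7.98 and 8.12 on female arrays, against 8.02, 8.24 and 8.32 on male arrays, again with overlap. The mean was 7.97 ± 0.09 in females against 8.19 ± 0.12 in males (SD, n = 9 each). They differed by -0.22 log2 (SE 0.050), 1.16-fold lower in females, with a limma adjusted p of 0.00523. Without the 6 arrays of bull 1 neither passed, at -0.21 log2 for PSMB8 (adjusted p = 0.0659) and -0.18 log2 for PSME2 (adjusted p = 0.0849).

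**Figure D2:**
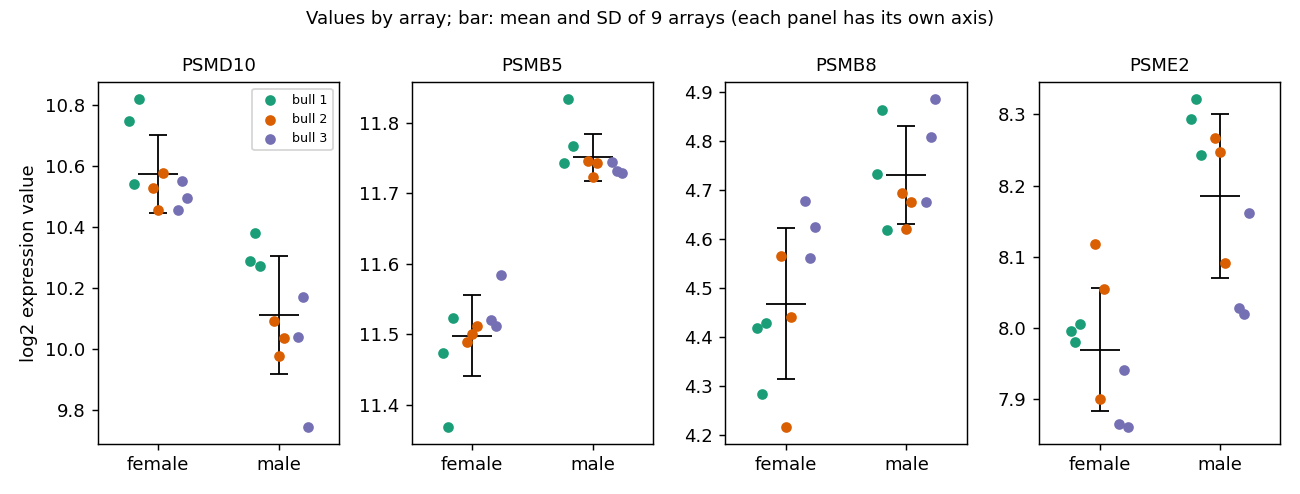
Log2 expression values (vertical axis, its own range in each panel) of the 4 members that passed the test for sex, with a point for each of 9 female and 9 male arrays coloured by bull, and the mean and SD. PSMD10 and PSMB5 do not overlap between the sexes, whereas PSMB8 overlaps between 4.62 and 4.68.

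The other members of the immunoproteasome list did not pass. PSMB9, which replaces the catalytic subunit PSMB6, had 7.23, 7.54 and 7.81 on female arrays, against 6.87, 7.47 and 7.71 on male arrays. Its difference was 0.08 log2 (limma adjusted p = 0.508), opposite in sign to that of PSMB8. PSMB10, which replaces PSMB7, had 4.43, 4.62 and 5.08 on female arrays, against 4.51, 4.64 and 5.21 on male arrays. That is a difference of -0.05 log2 (adjusted p = 0.81), and its sign turned when array weights were used or male bull 1 replicate 2 was left out. PSME1, the alpha subunit of PA28, had 9.52, 9.66 and 9.99997 on female arrays, against 9.54, 9.81 and 10.15 on male arrays (-0.10 log2, adjusted p = 0.383). Of these 5 genes 2 were lower in females and none was higher, against 7.47% and 8.12% of all probe sets, and the median difference was -0.10 log2, against -0.03 over all probe sets.

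Among the 13 core genes PSMB5 alone passed, against 15.6% of all probe sets in either direction, and the median difference was 0.03 log2. The 6 measured alpha subunits lay between -0.01 and 0.07 log2, 5 of them positive, and PSMA7, the brightest, had 12.87, 12.93 and 12.95 on female arrays against 12.81, 12.88 and 12.97 on male arrays. The 7 beta subunits lay between -0.25 and 0.06 log2, with 5 negative. After PSMB5 the catalytic subunits came next in p. PSMB6, with the caspase-like site, had 11.08, 11.15 and 11.33 on female arrays, against 11.17, 11.28 and 11.53 on male arrays (-0.13 log2, limma adjusted p = 0.107, and under the threshold in 4 of 33 alternatives). PSMB7, with the trypsin-like site, had 10.88, 11.01 and 11.06 on female arrays, against 10.77, 11.18 and 11.35 on male arrays (-0.16 log2, adjusted p = 0.107).

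The lowest male value of PSMB7 came from male bull 3 replicate 3, 1 of the 4 arrays of wide spread, while the other male arrays lay from 11.05 upward. Without those 4 arrays, an alternative chosen after seeing the data, its difference was -0.22 log2 and passed (adjusted p = 0.0049). It passed also without male bull 3 replicate 3 alone (-0.21 log2, adjusted p = 0.00715), and in 5 of 33 alternatives in all. The 3 catalytic subunits were negative in each bull, with a median of -0.16 log2, and the 4 other beta subunits had a median of -0.01. This split of the beta subunits was made after their values were seen and was not tested. PSMB1, one of the 4, had -0.12 log2 (adjusted p = 0.164).

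None of the 13 cap genes passed, against 15.6% of all probe sets and 20.8% of the brightest probe sets of each gene. With 13 genes in each class, the counts do not set core and cap apart. Differences of the cap genes lay between -0.12 and 0.10 log2 with a median of 0.00. The 6 ATPases, which unfold substrates, ran from -0.11 for PSMC5 to 0.02 for PSMC4. Of the 7 other subunits, PSMD2, a scaffold that docks ubiquitin receptors, had -0.12 log2 (limma adjusted p = 0.135), PSMD11 of the lid also -0.12, and PSMD13 of the lid 0.10. PSMD4, a ubiquitin receptor, had 0.06 log2, and PSMD14, the deubiquitinase of the lid, had 0.07 log2.

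Chaperones and regulators outside the particle differed among themselves. PSMD5, which like PSMD10 escorts ATPases of the cap during assembly, had 8.83, 9.35 and 9.45 on female arrays, against 9.18, 9.46 and 9.70 on male arrays. Its difference was -0.18 log2, just short of the threshold (limma adjusted p = 0.054), and opposite in sign to that of PSMD10. PSMD9, the third cap chaperone, had 0.08 log2 (adjusted p = 0.38). The chaperones of the core, PSMG1, PSMG2 and PSMG3, lay between -0.08 and 0.01 log2. PSME4, the activator PA200, had 0.14 log2 (adjusted p = 0.221), PSMF1, the inhibitor PI31, had -0.12 log2 (adjusted p = 0.196), and PSME3IP1 had 0.12 log2 (adjusted p = 0.159).

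For 6 members a dimmer probe set was also on the array. Those of PSMB2, PSMC2, PSMD4 and PSMC5 did not pass either, with differences of 0.05, 0.02, 0.06 and -0.00 log2. For PSMC6, an ATPase, the probe sets disagreed. The brighter one differed by 0.00 log2, whereas the dimmer one, at a mean of 8.64 in females and 8.98 in males, differed by -0.35 log2 (limma adjusted p = 0.00372). The dimmer PSMD6 probe set, at 4.29 over all arrays, differed by -0.15 log2 (adjusted p = 0.396), against 0.08 for the brighter one.

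Within an array, the log2 difference between an immunoproteasome subunit and the subunit it replaces shows whether their changes were unequal. PSMB8 minus PSMB5 averaged -7.03 ± 0.13 in females and -7.02 ± 0.09 in males (SD, n = 9 each), a difference of -0.01 log2 (two-sided exact permutation of sex within bulls, p = 0.857). PSMB8 and PSMB10 are dim probe sets, so that their differences from the brighter subunit may understate unequal changes. PSMB9 minus PSMB6 averaged -3.66 ± 0.25 in females and -3.88 ± 0.29 in males, 0.21 log2 higher in females, and was higher in females in each bull, by 0.25, 0.12 and 0.26 for bulls 1, 2 and 3 (exact permutation p = 0.00375, adjusted over 3 pairs 0.011). PSMB10 minus PSMB7 averaged -6.31 ± 0.18 in females and -6.42 ± 0.26 in males, and the sign of the difference varied between bulls (exact permutation p = 0.308, adjusted 0.461). These pairs and their test were chosen after the values were seen.

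The sex difference was then read within each bull, with 3 arrays of each sex. PSMD10 passed in all 3 bulls. In bull 1 it had 10.75, 10.54 and 10.82 in females against 10.29, 10.38 and 10.27 in males. In bull 2 the values were 10.53, 10.45 and 10.58 in females against 10.09, 9.98 and 10.04 in males, and in bull 3 they were 10.45, 10.55 and 10.49 in females against 10.04, 10.17 and 9.74 in males. The differences were 0.39, 0.48 and 0.52 log2 for bulls 1, 2 and 3 (limma adjusted p = 0.0432, 0.0129 and 0.00759), and the sexes did not overlap in any bull.

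PSMB5 passed in bull 1, at 11.47, 11.37 and 11.52 in females against 11.74, 11.83 and 11.77 in males (-0.33 log2, limma adjusted p = 0.0195). In bull 2 it had 11.49, 11.50 and 11.51 in females against 11.75, 11.72 and 11.74 in males (-0.24 log2, adjusted p = 0.124). In bull 3 it had 11.52, 11.51 and 11.58 in females against 11.74, 11.73 and 11.73 in males (-0.20 log2, adjusted p = 0.195). Females were thus below males in each bull, although the difference passed in bull 1 alone. PSMB8 had differences of -0.36, -0.26 and -0.17 log2 and PSME2 of -0.29, -0.18 and -0.18 log2 for bulls 1, 2 and 3, and neither passed within a bull. In all, 2 members passed in bull 1, 1 in bull 2 and 1 in bull 3, against 4.2%, 3.13% and 4.18% of all probe sets. When arrays were left out 1 at a time, the count in bull 1 became 1 in most fits, 0 without female bull 1 replicate 1 and 4 without male bull 3 replicate 3, and that in bull 2 became 0 without female bull 2 replicate 1 or 3 or male bull 2 replicate 2. The difference had the same sign in all 3 bulls for 20 of 40 members, against 48.1% of all probe sets.

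The interaction of sex and bull asks whether the sex difference itself differed between bulls. No member passed its F test in limma, none had an unadjusted p under 0.05, and the smallest was 0.0867 for PSMB1. Over all probe sets 0% passed and 2.73% had an unadjusted p under 0.05. Class medians within the bulls are given as a description. For the 13 core genes the median female minus male difference was -0.08, 0.03 and 0.09 log2 for bulls 1, 2 and 3, with 2, 7 and 10 genes positive. For the 13 cap genes it was -0.06, 0.01 and 0.04. The 5 immunoproteasome and PA28 genes kept negative medians of -0.14, -0.18 and -0.10, and all probe sets had -0.03, -0.02 and -0.01.

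**Figure D3:**
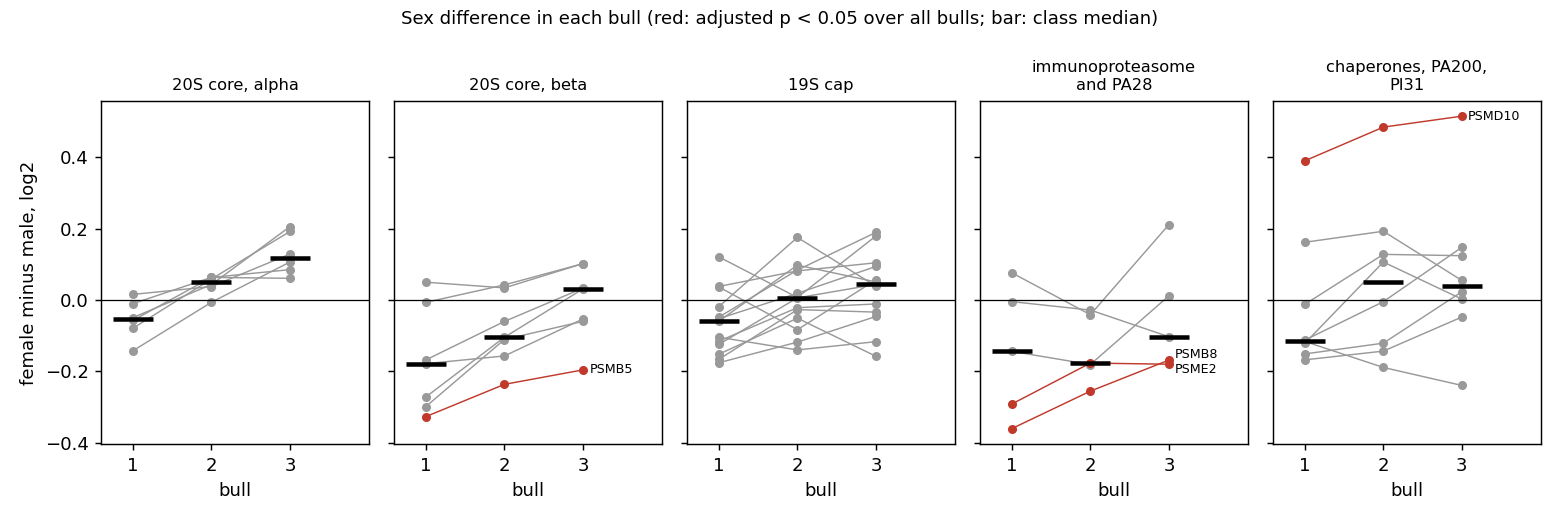
Female minus male log2 difference (vertical axis) of each proteasome gene within bulls 1, 2 and 3 (horizontal axis), joined by a line per gene, with the class median as a bar. Alpha subunits lie mostly below 0 in bull 1 and all above 0 in bull 3, while PSMD10 stays above and PSMB5, PSMB8 and PSME2 below 0 in each bull.

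Over bulls 1, 2 and 3, the medians of the core and cap genes rose together with the measure of RNA integrity. The median of the immunoproteasome and PA28 genes did not rise in that order, whereas their mean difference did, at -0.15, -0.14 and -0.05. The part of RNA integrity in these differences was not tested. The 5′ minus 3′ index of the control transcripts, female minus male, was -0.22, 0.01 and 0.22 for bulls 1, 2 and 3. On male bull 1 replicate 2, the array with the highest index, core genes lay on average 0.18 log2 and cap genes 0.21 log2 above their own means over 18 arrays. Immunoproteasome and PA28 genes lay 0.28 log2 above theirs. On male bull 3 replicate 3, with the lowest index, core genes lay at -0.18 log2 and cap genes at -0.10 log2 by the same measure. Immunoproteasome and PA28 genes lay at 0.15 log2 on that array. With the index as a covariate, the core medians were -0.02, 0.03 and 0.04 for bulls 1, 2 and 3, and without the 4 arrays of wide spread they were -0.14, 0.01 and 0.03. The immunoproteasome and PA28 medians were -0.07, -0.18 and -0.17 with the covariate, and -0.14, -0.14 and -0.07 without those arrays. Both settings were chosen after seeing the data.

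**Figure D4:**
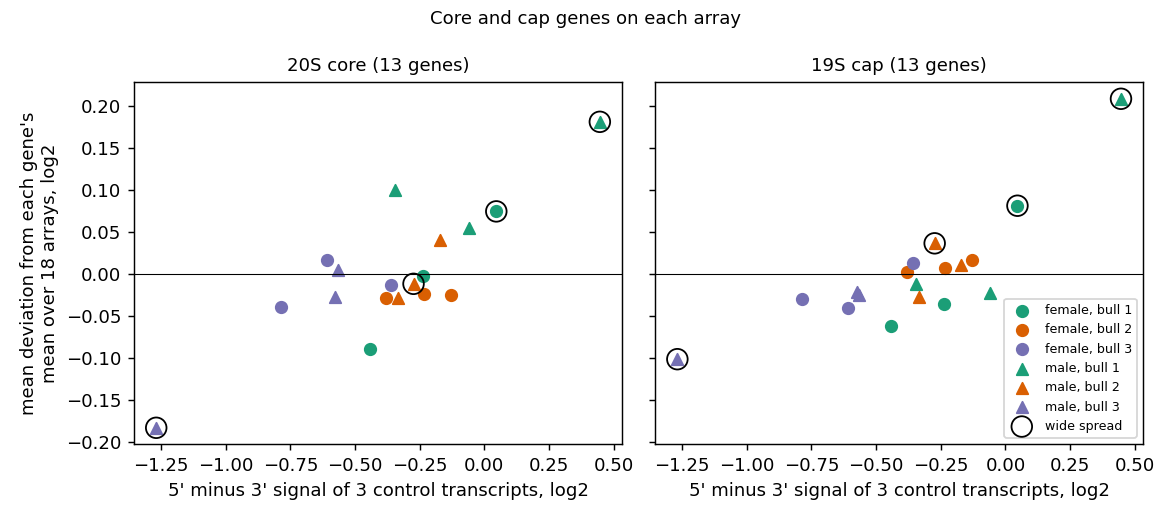
Mean log2 deviation of 13 core genes (left) and 13 cap genes (right) from their own means over 18 arrays (vertical axis) against the 5′ minus 3′ signal of 3 control transcripts (horizontal axis, log2), with a point per array. The arrays with the highest and lowest index, both of wide spread (ringed), carry the highest and lowest deviations.

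Over all 18 arrays, members varied together within a group, and less so without the 4 arrays of wide spread. After the 6 group means were taken away, the median pairwise correlation over 18 arrays was 0.34 among the 40 members, 0.47 among core genes, 0.24 among cap genes and 0.54 among immunoproteasome and PA28 genes, against 0.07 among all genes. Without the 4 arrays of wide spread these medians were 0.18, 0.27, 0.06 and 0.28, against 0.01 among all genes. Beta subunits went to 0.06 without those arrays, against 0.49 with them, and alpha subunits to 0.38, against 0.47. Most members are bright, and no set of genes of like brightness was compared. The arrays share amplification and RNA integrity, and these values carry no test.

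The second question was whether the bull mattered. No label gives a production batch, so bull and batch cannot be told apart. Against bull 1, PSMB9 and PSMD5 were higher in bull 2 and higher in bull 3, and no member was lower. This made 2 of 40 members in each comparison. For bull 3 over bull 1, 3.53% of all probe sets passed (1.18% higher and 2.35% lower in bull 3), and for bull 2 over bull 1, 1.52% (0.475% higher and 1.04% lower in bull 2). Between bull 3 and bull 2, PSMF1 was higher in bull 3, 1 of 40 members against 3.74% of all probe sets (1.69% higher and 2.04% lower in bull 3). Outside the probe sets kept, the dimmer one of PSMD6, at a mean of 4.29, was also higher in bull 3. It differed by 0.56 log2 (limma adjusted p = 0.022), whereas the brighter PSMD6 probe set had -0.08 log2 (adjusted p = 0.552). The comparisons of bulls 2 and 3 with bull 1 share its 6 arrays.

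PSMB9 lies beside TAP1, which encodes a peptide transporter subunit of antigen presentation, with PSMB8 on the other side of TAP1 on chromosome 23. It had 7.46, 7.65 and 7.81 (lowest, median, highest of 6 arrays) in bull 3, 7.42, 7.56 and 7.71 in bull 2, and 6.87, 7.24 and 7.47 in bull 1. The highest bull 1 array, male bull 1 replicate 2, reached into the range of the other bulls. Bull 3 exceeded bull 1 by 0.43 log2 or 1.35-fold (SE 0.085, limma adjusted p = 0.0107), by 0.50 in females and 0.36 in males. Bull 2 exceeded bull 1 by 0.35 log2 or 1.28-fold (SE 0.085, adjusted p = 0.0440), by 0.29 in females and 0.41 in males.

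The call for bull 2 over bull 1 did not pass in 15 of 18 fits that left out 1 array each, with adjusted p from 0.0509 to 0.11 in those. The call for bull 3 over bull 1 held in all 18. With the 5′ minus 3′ index as a covariate it did not pass, although the difference was 0.51 log2 (adjusted p = 0.249). Its neighbour PSMB8 differed by 0.15 log2 for bull 3 over bull 1 and by -0.02 for bull 2 over bull 1, with neither called. TAP1 had 0.26 for bull 3 over bull 1 and 0.30 for bull 2 over bull 1, not called either.

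PSMD5 had 9.24, 9.45 and 9.70 in bull 3, 9.35, 9.42 and 9.62 in bull 2, and 8.83, 9.18 and 9.24 in bull 1. The highest array of bull 1 and the lowest of bull 3 met at 9.24, and bull 2 lay above both. Bull 3 exceeded bull 1 by 0.36 log2 or 1.28-fold (SE 0.076, limma adjusted p = 0.0169), and bull 2 exceeded bull 1 by 0.33 log2 or 1.26-fold (SE 0.076, adjusted p = 0.0355). In females the differences were 0.30 and 0.29, and in males 0.42 and 0.37. The call for bull 2 over bull 1 did not pass in 9 of 18 fits without 1 array (adjusted p from 0.0519 to 0.0869 in those). That for bull 3 over bull 1 did not pass without female bull 3 replicate 1 (adjusted p = 0.0549), and neither passed without the 4 arrays of wide spread (0.0522 for bull 3, 0.0604 for bull 2). With the 5′ minus 3′ index as a covariate the difference was 0.24 log2 for bull 3 over bull 1 (adjusted p = 0.826) and 0.30 log2 for bull 2 over bull 1 (adjusted p = 0.0590).

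PSMF1 had 7.94, 8.05 and 8.09 in bull 3, against 7.62, 7.81 and 7.89 in bull 2. These ranges did not overlap, and bull 1, at 7.76, 7.78 and 8.18, spanned both through male bull 1 replicate 2. How many of all probe sets do not overlap between bulls was not counted, here and for PSMD5. Bull 3 exceeded bull 2 by 0.27 log2 or 1.20-fold (SE 0.071, limma adjusted p = 0.0416), by 0.32 in females and 0.22 in males, and 13 of 18 fits without 1 array did not pass (adjusted p from 0.0509 to 0.116 in those). The largest difference between bulls that was not called was that of PSMD13, at -0.39 log2 for bull 3 minus bull 2 (adjusted p = 0.071).

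**Figure D5:**
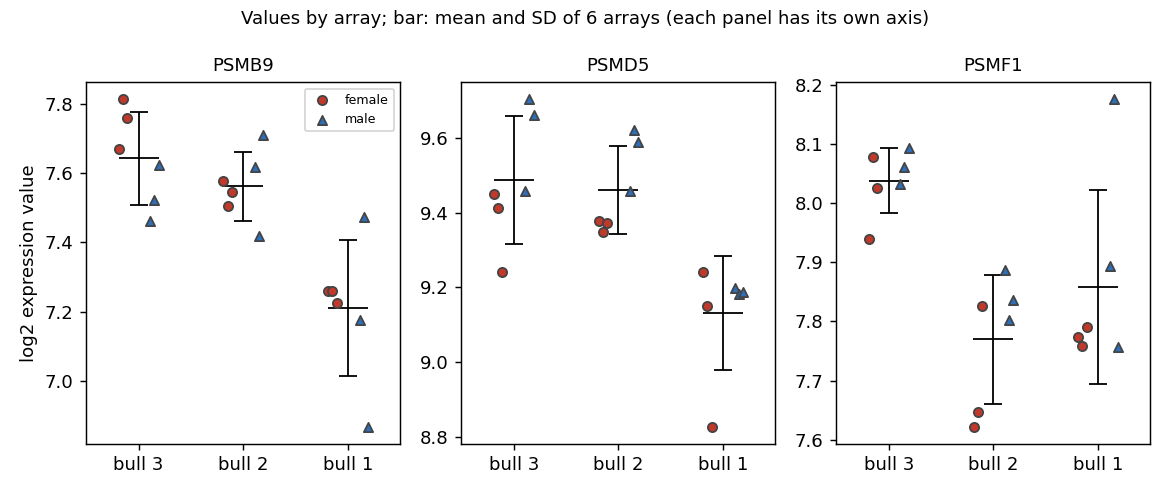
Log2 expression values (vertical axis, its own range in each panel) of the 3 members that passed a test between bulls, with a point per array for bull 3, bull 2 and bull 1 and the mean and SD of 6 arrays. PSMB9 and PSMD5 are lowest in bull 1, and PSMF1 is higher in bull 3 than in bull 2.

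By class, the 13 core genes had a median of -0.10 log2 for bull 3 minus bull 1 and -0.07 for bull 2 minus bull 1, and none was called. All 6 alpha subunits were negative for bull 3 minus bull 1, from -0.26 to -0.03. The cap genes had medians of -0.07 and -0.04 for the same comparisons. All probe sets had -0.02 and -0.05. The 5 immunoproteasome and PA28 genes had 0.05 and -0.03. The 5′ minus 3′ index also differed between bulls. Its means were -0.21 in females and 0.01 in males of bull 1, and -0.25 and -0.26 in bull 2. In bull 3 they were -0.59 in females and -0.80 in males. The part of RNA integrity in these class medians was not tested.

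Partners of the proteasome were followed as a list beside the members. Of 13 measured, 3 were higher and 2 lower in females, against 8.12% and 7.47% of all probe sets. UBQLN2, an X-linked shuttle that carries ubiquitinated proteins to the cap, stood at 10.37 ± 0.15 in females and 9.39 ± 0.15 in males, 0.98 log2 higher (limma adjusted p = 1.49e-09). AKIRIN2, which brings proteasomes into the nucleus, was higher by 0.33 log2 (adjusted p = 0.000188), and ZFAND5, an activator that binds the cap, by 0.27 log2 (adjusted p = 0.00173). UBE3C, a ligase that acts at the proteasome, stood at 5.60 ± 0.14 in females and 6.06 ± 0.13 in males, a difference of -0.46 log2 (adjusted p = 2.44e-05), and UBQLN4, another shuttle and the remaining call, named after its values were seen, was lower with a difference of -0.25 log2 (adjusted p = 0.0221).

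Of 6 measured genes that supply ubiquitin or unfold tagged proteins, the X-linked UBA1, the main ubiquitin-activating enzyme, was higher in females by 0.60 log2 (limma adjusted p = 1.09e-07). UFD1, a cofactor of the segregase VCP, was lower with a difference of -0.18 log2 (adjusted p = 0.0141). Among 8 regulators of proteasome genes, NFE2L2 was higher in females by 0.18 log2 (adjusted p = 0.0387) and none was lower. The shares of all probe sets to set beside both lists are 8.12% higher and 7.47% lower in females. NFE2L1, the factor that raises proteasome transcription when proteasomes are inhibited, had 0.07 log2 (adjusted p = 0.41).

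PSMB8, PSMB9, PSMB10, PSME1 and PSME2 are textbook targets of interferon. Of 8 measured genes of interferon and its signal, 3 were higher in females and none was lower, against 8.12% and 7.47% of all probe sets, and the median was 0.12 log2 against -0.03 over all probe sets. IFNT2, an interferon tau of the trophectoderm, stood at 11.15 ± 0.21 in females and 10.56 ± 0.31 in males, 0.59 log2 higher (limma adjusted p = 0.000678). It belongs to a family of near-identical genes and is uncertain. IRF9 was higher by 0.32 log2 (adjusted p = 0.00994) and IFNGR2 by 0.27 log2 (adjusted p = 0.0302). Among 10 measured genes of antigen processing, TAP2 was higher in females by 0.43 log2 (adjusted p = 0.000488) and ERAP1, a peptide-trimming enzyme, by 0.33 log2 (adjusted p = 0.0186), while TAP1 had -0.19 log2 (adjusted p = 0.131) and none was lower. With 2 of 10 higher in females, against 8.12% of all probe sets, this list had a median of 0.02 log2.

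Markers of the cell types a pool could hold were read beside the immunoproteasome genes. Of 10 measured leukocyte markers, TYROBP was higher in females, with a difference of 0.40 log2, and CD68 lower, with -0.43 log2, and the mean of the list lay between 4.38 and 4.68 on female arrays and between 4.40 and 4.63 on male arrays. Of 7 trophectoderm markers, TFAP2A and ASCL2 were lower in females and none was higher, and the mean of the list lay between 7.48 and 7.79 on female arrays and between 7.55 and 7.98 on male arrays. Of 4 inner cell mass markers, SPP1 was higher in females, with list means from 9.46 to 9.78 on female arrays and from 9.27 to 9.56 on male arrays. Of 5 primitive endoderm markers GATA4 was lower in females, with list means from 8.15 to 8.32 on female arrays and from 8.15 to 8.34 on male arrays. Of 11 cumulus markers, CYP19A1, HSD3B1 and DCN were higher in females, with list means from 5.45 to 5.94 on female arrays and from 5.19 to 5.72 on male arrays. Means over 18 arrays of the called TFAP2A, ASCL2, SPP1 and GATA4 were 5.94, 4.89, 5.36 and 5.95. The brightest markers of the same lists, KRT18, POU5F1 and GATA6, differed by -0.0035, 0.0005 and 0.07 log2 and did not pass. For comparison with these counts, 8.12% of all probe sets passed higher and 7.47% lower in females. Of the brightest probe sets of each gene, 20.8% passed in either direction. The part of these markers in the proteasome results was not tested.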

How the data were processed

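The authors deposited log2 expression values per probe set. Per the submitters' processing notes RMA and Partek 6.4 were used, with no role given. Their range, 1.89 to 14.15, gave the scale. If the arrays were normalised together, as RMA does, a shift of all transcripts cannot be seen. No scan date or batch was known.

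Of 24128 probe sets, 112 controls were left out. GEO's platform annotation names 1 gene for 13292 probe sets, several for 86 and no gene for 10638. Gene numbers gave current symbols for 13263, all 40 members included, from a RefSeq table of ARS-UCD2.0, used only for names, chromosomes and neighbours. Its build is not that of the array.

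Means of 6 groups were fitted to all 24016 probe sets with limma 3.58.1 in R 4.3.3 with 12 residual degrees of freedom. Contrasts were taken for sex, sex within bulls, their interaction and the bulls, and p-values were adjusted by Benjamini-Hochberg (threshold 0.05). A fold change is the antilog of a log2 difference. The steps were tested on simulated data. Members, classes and lists were chosen with earlier results of these data known, and no list was tested. Named in full were the called members, the 3 nearest misses for sex and all immunoproteasome members, and up to 4 per list by smallest p, with exceptions stated. Alternatives are given in the closing section.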

Additional observations from a re-analysis of the deposited data

Results flagged for a closer look

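In 16 of 89 groups of arrays tested, the highest or lowest array of a member lay far from the others (its gap to the nearest over the range above 0.493 for 9 arrays or 0.625 for 6), where chance gives about 1 in 20. Most came from 3 of the arrays of wide spread.

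Male bull 1 replicate 2 was the highest male array for PSMB1 at 11.51, PSMB5 at 11.83, PSMC3 at 11.41, PSMD1 at 11.07 and PSMG2 at 11.99, and the highest bull 1 array for PSMF1 at 8.18. The nearest arrays stood at 11.35, 11.77, 11.09, 10.71, 11.64 and 7.89 for these genes in that order. Female bull 1 replicate 3 was the highest female array for PSMC3 at 11.19, PSMC4 at 11.15 and PSMD1 at 10.94, and the lowest for PSMD5 at 8.83, also among the 6 arrays of bull 1, where the nearest stood at 9.15.

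Male bull 3 replicate 3 was the lowest male array for PSMA5 at 10.53, with the nearest at 10.82, and for PSMD6 at 10.10, with the nearest at 10.30, and the highest for PSME4 at 10.10, with the nearest at 9.69. Outside the arrays of wide spread, female bull 1 replicate 2 was the lowest female array for PSMD6 at 10.30, and female bull 3 replicate 2 the highest for PSME4 at 9.97. For PSMB5 the far array lay away from the females, and the sexes do not overlap without it.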

How the results depend on the processing

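PSMD10 and PSMB5 kept their calls for sex in all 33 alternatives run, with adjusted p up to 0.00386 and 0.0246. PSMB8 kept its call in 31 of 32 and PSME2 in 32 of 33, both losing it without bull 1. The 4 members called for sex became 7 without moderation, with an intensity trend and with array weights, and 4 to 6 when 1 array was left out (6 without male bull 3 replicate 3). Within bull 1, the count of 2 became 5 without moderation, with array weights and with probe sets averaged per gene, 4 among the brighter probe sets and with 1 probe set per gene, and 0 to 4 without 1 array. Within bull 2, 1 became 2 without moderation, among the brighter probe sets, with array weights, with the trend, after quantile normalization, with 1 probe set per gene and with probe sets averaged, and 0 to 1 without 1 array. Within bull 3, 1 became 2 without moderation and with the trend, 3 with array weights, and stayed at 1 without any 1 array. The interaction gave 0 in all 31 alternatives.

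For bull 2 over bull 1, 2 became 1 without moderation, without the 4 arrays of wide spread and with the 5′ minus 3′ index as a covariate, and 0 to 2 without 1 array. For bull 3 over bull 1, 2 became 4 without moderation, with the trend and with array weights, 1 without the wide arrays, 0 with the index, and 1 to 3 without 1 array (3 without male bull 3 replicate 2, male bull 1 replicate 2 or female bull 1 replicate 2). For bull 3 over bull 2, 1 became 2 among the brighter probe sets, after quantile normalization, with the trend and without the wide arrays, 3 with array weights, 0 with the index, and 0 to 2 without 1 array. The causes were not tested. PSMB10 turned its sign for sex with array weights (adjusted p = 0.883) and without male bull 1 replicate 2 (adjusted p = 0.901, within 0.561 to 0.956 over the fits without 1 array). For sex, PSMD5 passed in 12, PSMB7 in 5 and PSMB6 in 4 of 33 alternatives.

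Same-numbered female and male arrays of a bull correlated between -0.18 and 0.10, over 0.1 in 2 of 9 pairs. These values gave no sign of pairing by number, but with 3 arrays per group they do not settle it. With the sample number as a replicate block, the counts were 1 within bull 1, 0 for bull 2 over bull 1 and 0 for bull 3 over bull 2.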
